A study of Mus musculus with 18 samples.

Results

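The 6 genes described here were listed as secretoglobins and club secretory products: the secretoglobins Scgb1a1, Scgb3a1 and Scgb3a2, and Bpifa1, Sec14l3 and Chad. For Sec14l3 the name is that of the list only. They were taken from a list of gene names, and all 6 were found among the 15544 genes measured, on average above the floor of 6 log2 units that a gene had to pass to be tested. RNA came from EpCAM+ lung cells of mice, captured on magnetic beads, and each of the 18 libraries has its own set of log2 levels. Double-Het mice (Falcor+/-;Foxa2+/-, n = 4, replicates 15 to 18) carry 1 copy each of the long non-coding RNA Falcor and of the forkhead transcription factor Foxa2. Falcor-/- mice (n = 5, replicates 6 to 10) carry no intact copy of Falcor, Foxa2+/- mice (n = 4, replicates 11 to 14) carry 1 copy of Foxa2, and WT mice (n = 5, replicates 1 to 5) carry both copies of both. An age of 10 to 12 weeks is stated for the wild-type animals; no treatment is recorded. The labels do not give the design of either allele, the strain, or whether each library came from 1 animal, so the p-values measure the spread between these libraries, which may be partly technical. Foxa2 levels ran from 12.12 to 12.58 in Double-Het, 12.42 to 12.99 in Falcor-/-, 12.35 to 12.47 in Foxa2+/- and 12.83 to 13.03 in WT libraries. The Falcor transcript (9030622O22Rik) ran from 11.50 to 11.86 in Double-Het, 5.39 to 7.27 in Falcor-/-, 11.46 to 11.96 in Foxa2+/- and 9.68 to 10.72 in WT libraries, so the libraries labelled Double-Het lay above WT and not below it for Falcor; their label is used here as it stands. Epcam averaged 14.19, 14.17, 13.98 and 13.89 in Double-Het, Falcor-/-, Foxa2+/- and WT cells, and the leukocyte marker Ptprc was also present, at 14.20, 14.21, 14.28 and 14.25. The comparisons ask how a loss of Falcor, of a Foxa2 copy, or of 1 copy of each bears on these 6 genes.

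Club cells are the secretory cells of the small conducting airways of the mouse. They release secretoglobins, small dimeric proteins that make up much of the protein of airway lining fluid, and they are stem cells for ciliated cells after injury. Scgb1a1 (club cell secretory protein) is their classic product; Scgb3a2 is a related secretoglobin that depends on the lung transcription factor Nkx2-1; Scgb3a1 is another, abundant in larger airways. Bpifa1 (SPLUNC1) is a secreted lipid-binding defence protein that also restrains the epithelial sodium channel. Chad encodes chondroadherin, a leucine-rich repeat matrix protein first known from cartilage. Sec14l3 is not a secretoglobin or a known airway defence protein but a lipid-binding protein of the Sec14 family, described from ciliated airway epithelium. Foxa2 and its paralog Foxa1 bind forkhead sites, among them sites in promoters of airway secretory genes.

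Because the mutants bear on a forkhead factor, the 250 bases before the annotated start were read for the 4 genes with an entry in the RefSeq promoter table (GRCm38.p6): Scgb3a1 (chr11:49663345-49663594, plus strand), Bpifa1 (chr2:154142630-154142879, plus strand), Chad (chr11:94564797-94565046, plus strand) and Sec14l3 (chr11:4064603-4064852, plus strand). They are shown because they put the letters a forkhead factor can bind beside the gene that fell in Foxa2+/- cells (Sec14l3) and those of the 4 that did not. Scgb1a1 and Scgb3a2, which were not called lower there either, have no entry and were not read. Capitals mark the forkhead letters searched on either strand, which were TGTTTAC and also TGTTTGC, besides TATTTAC and then TATTTGC.
Scgb3a1: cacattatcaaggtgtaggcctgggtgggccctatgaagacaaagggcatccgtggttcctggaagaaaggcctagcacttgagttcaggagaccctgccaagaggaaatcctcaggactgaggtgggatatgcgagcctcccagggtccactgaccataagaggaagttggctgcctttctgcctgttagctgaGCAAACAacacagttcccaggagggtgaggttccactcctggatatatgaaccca
Bpifa1: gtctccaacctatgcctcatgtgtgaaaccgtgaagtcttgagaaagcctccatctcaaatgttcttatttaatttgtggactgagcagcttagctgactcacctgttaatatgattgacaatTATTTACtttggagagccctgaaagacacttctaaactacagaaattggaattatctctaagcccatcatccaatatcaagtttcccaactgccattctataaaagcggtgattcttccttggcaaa
Chad: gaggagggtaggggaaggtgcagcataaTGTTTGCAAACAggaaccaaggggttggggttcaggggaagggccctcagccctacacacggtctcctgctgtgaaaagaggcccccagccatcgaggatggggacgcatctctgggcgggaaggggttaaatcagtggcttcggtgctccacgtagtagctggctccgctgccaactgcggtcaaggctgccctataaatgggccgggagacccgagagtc
Sec14l3: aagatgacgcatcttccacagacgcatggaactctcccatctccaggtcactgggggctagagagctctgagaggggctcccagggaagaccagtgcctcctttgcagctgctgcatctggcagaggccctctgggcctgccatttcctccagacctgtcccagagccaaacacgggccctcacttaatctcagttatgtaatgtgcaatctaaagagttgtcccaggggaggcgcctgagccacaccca
The Scgb3a1 window holds 1 match, on the minus strand at 55 to 49 bases before the start. The Bpifa1 window holds 1 match, at 127 to 121 bases before it. The Chad window holds 2 matches on opposite strands, at 222 to 216 and 217 to 211 bases before it, which overlap by 2 bases. The Sec14l3 window holds 0 matches. Of all 32851 promoter windows of this length, 11.9% hold at least 1 of these sequences. A match is a description of the letters, and no binding was measured here.

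Among the 6 genes, only 2 differed from wild type in the linear model over all genes (limma, Benjamini-Hochberg adjusted p under 0.05): Scgb3a2 was higher in Double-Het cells and Sec14l3 was lower in Foxa2+/- cells. Between mutants, Chad was lower in Falcor-/- cells than in either other mutant, and Sec14l3 was lower in Foxa2+/- cells than in either other mutant. In Double-Het against WT, 1 of the 6 genes was called, beside 14.8% of all 15249 genes tested. In Falcor-/- against WT 0 of 6 were called by limma, beside 9.47% of all genes; at an unadjusted p under 0.05 it was 1 of 6, Chad, beside 33.5% of all genes, and no gene reached an exact permutation p under 0.05. In Foxa2+/- against WT 1 of 6 was called, beside 6.11% of all genes. The median log2 difference of the 6 genes was 0.47 in Double-Het cells, where that of all genes was 0.07. It was 0.003 in Falcor-/- cells, beside 0.03 for all genes, and 0.25 in Foxa2+/- cells, beside 0.04. All 3 comparisons use the same WT libraries.

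**Figure D1:**
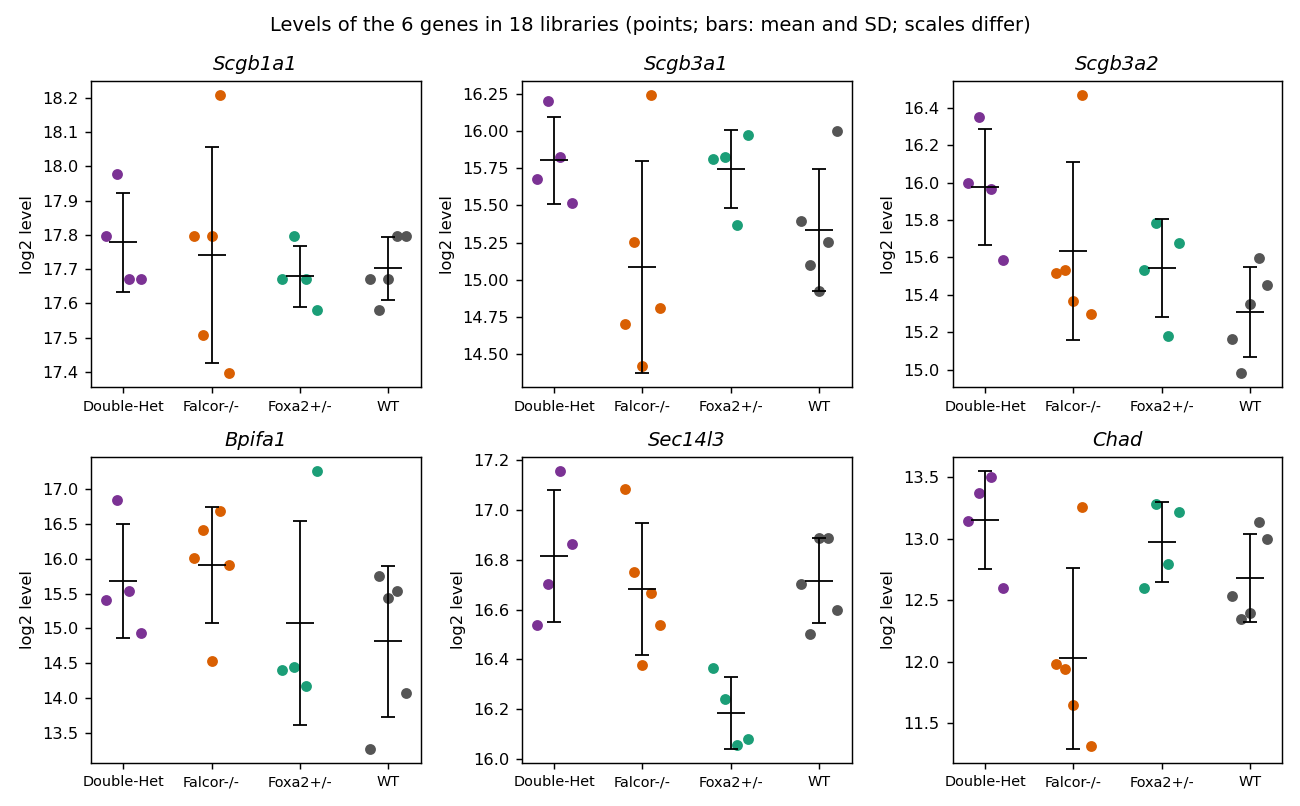
Log2 level (vertical axis, a scale of its own for each gene) of the 6 genes in every library, by genotype. Points are libraries and bars give the mean and SD. The 4 Foxa2+/- libraries lie below all WT libraries for Sec14l3 (16.06 to 16.36 against 16.50 to 16.89), and 1 Falcor-/- library lies far above the rest of its genotype for Scgb3a2 (16.47).

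Scgb1a1 held one of the highest ranks in every library, between rank 6 and rank 13, and was not called between any pair of genotypes. Its log2 levels were 17.80, 17.98, 17.67 and 17.67 in Double-Het libraries, 17.80, 17.51, 17.80, 18.21 and 17.40 in Falcor-/- libraries, 17.67, 17.80, 17.67 and 17.58 in Foxa2+/- libraries, and 17.67, 17.58, 17.67, 17.80 and 17.80 in WT libraries. The groups overlapped throughout, and several libraries hold the same value. These repeats come from the deposited scale: all libraries share one set of values by rank, so a gene so near the top moves only in rank steps. The difference from WT was 0.08 in Double-Het cells (95% CI -0.20 to 0.36, adjusted p = 0.729), 0.04 in Falcor-/- cells (-0.23 to 0.30, adjusted p = 0.845) and -0.02 in Foxa2+/- cells (-0.30 to 0.26, adjusted p = 0.959). A change in the amount of Scgb1a1 RNA that does not alter its rank is not visible on this scale.

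Scgb3a2 rose in Double-Het cells. Its levels were 15.998, 16.35, 15.97 and 15.59 in Double-Het libraries, 15.52, 15.53, 15.37, 16.47 and 15.30 in Falcor-/- libraries, 15.53, 15.78, 15.18 and 15.67 in Foxa2+/- libraries, and 15.16, 14.98, 15.35, 15.60 and 15.45 in WT libraries. All 4 Double-Het libraries lay above the WT mean, but the lowest of them, replicate 18, lay just under the highest WT library. The means were 15.97 ± 0.31 in Double-Het cells (SD, n = 4) and 15.31 ± 0.24 in WT cells (SD, n = 5), a log2 difference of 0.67 (SE 0.21, 95% CI 0.22 to 1.11, 1.59-fold, limma adjusted p = 0.0434). The exact permutation p was 0.0317, or 0.286 after adjustment over the 36 comparisons of the 6 genes, where 0.0159 is the smallest p that 4 against 5 libraries allow. The difference was 0.33 in Falcor-/- cells (SE 0.20, adjusted p = 0.252) and 0.23 in Foxa2+/- cells (SE 0.21, adjusted p = 0.626), both against WT. Double-Het minus Falcor-/- was 0.34 (adjusted p = 0.380) and Double-Het minus Foxa2+/- was 0.43 (adjusted p = 0.320), so the 3 mutants were not shown to differ from each other in Scgb3a2.

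The call for Scgb3a2 was near the threshold. It held in 2 of the 9 runs that left out 1 library, without Double-Het replicate 18 (0.79, adjusted p = 0.0249) or WT replicate 4 (0.74, adjusted p = 0.0422); leaving out Double-Het replicates 15, 16 or 17 or WT replicates 1, 2, 3 or 5 gave adjusted p up to 0.155, with differences of at least 0.54. Genes listed as pan-epithelial averaged 13.48 ± 0.10 in Double-Het cells (SD, n = 4) and 13.22 ± 0.05 in WT cells (SD, n = 5) over 26 genes, of which 7 rose and 0 fell. Cldn18 stands both among them and among the alveolar type 1 markers. Within genotypes their mean went with Scgb3a2 (r = 0.74, adjusted permutation p = 0.0115), so this reference is not independent of Scgb3a2. Set against these genes, the Scgb3a2 difference was 0.40 (adjusted p = 0.103). Endothelial markers averaged 10.10 in Double-Het, 11.70 in Falcor-/-, 10.46 in Foxa2+/- and 12.46 in WT libraries, with libraries from 9.77 to 10.41, 10.95 to 12.79, 10.31 to 10.76 and 11.49 to 12.96, and 22, 2 and 21 of the 24 fell in Double-Het, Falcor-/- and Foxa2+/- cells against WT. Mesenchymal markers averaged 10.22 in Double-Het, 11.45 in Falcor-/-, 10.81 in Foxa2+/- and 12.14 in WT libraries, and 20, 5 and 13 of 23 fell. Alveolar type 1 markers averaged 13.85, 14.27, 13.75 and 14.47 in the same order, and 10, 0 and 9 of 16 fell. Macrophage markers averaged 11.25, 11.68, 12.27 and 12.38, and 8, 7 and 0 of 20 fell. The Falcor-/- counts depended on single libraries. With 1 left out, 1 to 16 endothelial, 2 to 7 mesenchymal, 0 to 2 alveolar type 1 and 1 to 7 macrophage markers fell there. In the same order of lists, 21 to 23, 17 to 20, 5 to 12 and 6 to 10 fell in Double-Het cells. For Foxa2+/- cells it was 20 to 22, 11 to 16, 5 to 12 and 0 in every run. Alveolar type 2 markers averaged 16.66, 16.52, 16.69 and 16.52, and 2, 2 and 0 of 20 rose. Over all genes, 7.57%, 4.24% and 4.15% fell in Double-Het, Falcor-/- and Foxa2+/- cells against WT. In the same order, 7.21%, 5.23% and 1.96% rose, so the alveolar type 2 counts are no result about that list. The part of the marker shifts in the members' differences was not tested beyond that centring. In bulk samples, fewer cells of a type and less RNA per cell cannot be told apart.

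**Figure D2:**
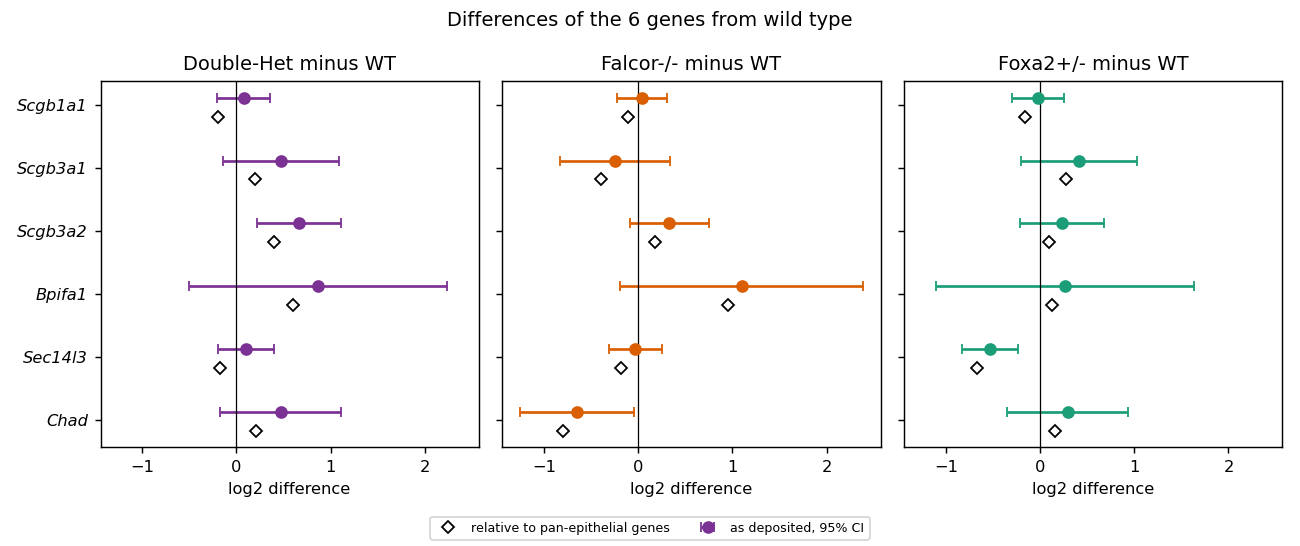
Log2 difference from WT (horizontal axis) of each of the 6 genes in Double-Het, Falcor-/- and Foxa2+/- cells. Filled points with bars are differences with 95% confidence intervals; open diamonds are the same differences after the mean of 26 pan-epithelial genes was subtracted in each library. Scgb3a2 in Double-Het cells (0.67, then 0.40) and Sec14l3 in Foxa2+/- cells (-0.53, then -0.67) have intervals that leave out 0, as does Chad in Falcor-/- cells, whose adjusted p was 0.124.

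Scgb3a1 followed another order. Its levels were 15.67, 16.20, 15.82 and 15.52 in Double-Het libraries, 14.71, 15.25, 14.42, 16.24 and 14.81 in Falcor-/- libraries, 15.81, 15.82, 15.37 and 15.98 in Foxa2+/- libraries, and 15.40, 15.10, 14.92, 15.25 and 15.998 in WT libraries. Among Falcor-/- libraries, 4 lay below every Double-Het and Foxa2+/- library, while replicate 9 was the highest of all 18. The means were 15.80 ± 0.29 in Double-Het, 15.09 ± 0.71 in Falcor-/-, 15.74 ± 0.26 in Foxa2+/- and 15.33 ± 0.41 in WT cells (SD, n = 4, 5, 4 and 5). Against WT the differences were 0.47 (adjusted p = 0.297), -0.25 (adjusted p = 0.534) and 0.41 (adjusted p = 0.495) in Double-Het, Falcor-/- and Foxa2+/- cells, and none passed. The difference between Double-Het and Falcor-/- cells was 0.72 (SE 0.29, adjusted p = 0.164), and without Falcor-/- replicate 9 it was 1.01 (adjusted p = 0.0157). Falcor-/- minus Foxa2+/- was -0.66 (adjusted p = 0.114), and without that library -0.95 (adjusted p = 0.0179).

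Bpifa1 was the most variable of the 6 genes, with a 15.9-fold range over the libraries. Its levels were 15.41, 16.85, 15.54 and 14.93 in Double-Het libraries, 16.01, 16.41, 14.53, 16.69 and 15.92 in Falcor-/- libraries, 14.41, 14.45, 14.18 and 17.26 in Foxa2+/- libraries, and 13.27, 15.76, 15.44, 15.53 and 14.07 in WT libraries. The groups overlapped in every pair, and most of the spread was within genotypes: 19.1% of the variance lay between them. The lowest library was WT replicate 1 and the highest Foxa2+/- replicate 14. Against WT the differences were 0.87 (95% CI -0.50 to 2.24, adjusted p = 0.387) in Double-Het, 1.10 (-0.19 to 2.39, adjusted p = 0.212) in Falcor-/- and 0.26 (-1.11 to 1.63, adjusted p = 0.893) in Foxa2+/- cells. The sign of the Foxa2+/- difference rested on single libraries: it was -0.47 without Foxa2+/- replicate 14 and -0.12 without WT replicate 1. For Foxa2+/- cells the interval spans changes of more than 2-fold in either direction.

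Chad was lowest in Falcor-/- cells. Its levels were 13.14, 13.37, 13.50 and 12.60 in Double-Het libraries, 11.98, 11.94, 11.65, 13.25 and 11.31 in Falcor-/- libraries, 12.60, 13.28, 12.80 and 13.22 in Foxa2+/- libraries, and 12.54, 12.34, 12.40, 13.13 and 13.00 in WT libraries. Of the Falcor-/- libraries, 4 lay below every library of the other genotypes, and replicate 9 lay among the highest. Double-Het minus Falcor-/- was 1.13 (SE 0.31, 95% CI 0.48 to 1.77, 2.18-fold, limma adjusted p = 0.0413; exact permutation p = 0.0476, or 0.343 adjusted over the 36 comparisons). Falcor-/- minus Foxa2+/- was -0.95 (95% CI -1.59 to -0.30, 51.9% of the Foxa2+/- level, adjusted p = 0.0436; exact permutation p = 0.0635, or 0.352 adjusted). Against WT, the Falcor-/- difference was -0.65 (95% CI -1.26 to -0.05, 63.5% of the WT level, adjusted p = 0.124), the Double-Het difference 0.47 (adjusted p = 0.317) and the Foxa2+/- difference 0.29 (adjusted p = 0.688).

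Falcor-/- replicate 9 decided the comparison of Chad with WT. Without it the Falcor-/- difference was -0.96 (adjusted p = 0.0237), and relative to the pan-epithelial genes, with all libraries, it was -0.81 (adjusted p = 0.0461). Double-Het minus Falcor-/- kept its call without Double-Het replicate 18 (1.31, adjusted p = 0.0310) or Falcor-/- replicate 9 (1.43, adjusted p = 0.00525) and lost it without any other library of either genotype, with differences of at least 0.95. Falcor-/- minus Foxa2+/- kept its call without Falcor-/- replicates 7 or 9 or Foxa2+/- replicate 11 and lost it in the other 6 runs, with differences of -0.77 to -1.25 over all 9. Chad lies within an intron of Acsf2 on the opposite strand, and no strand setting is given in the sources used here, so its level may hold reads of that gene. Of 12 cartilage genes listed, Acan, Col2a1 and Comp among them, 3 were in the table, and these averaged 7.94, 8.15, 8.22 and 8.11 in Double-Het, Falcor-/-, Foxa2+/- and WT cells.

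Sec14l3 fell in Foxa2+/- cells. Its levels were 16.54, 16.70, 17.16 and 16.86 in Double-Het libraries, 17.09, 16.75, 16.38, 16.67 and 16.54 in Falcor-/- libraries, 16.36, 16.24, 16.06 and 16.08 in Foxa2+/- libraries, and 16.70, 16.50, 16.89, 16.89 and 16.60 in WT libraries. The 4 Foxa2+/- libraries lay below every library of the other 3 genotypes. Foxa2+/- minus WT was -0.53 (SE 0.14, 95% CI -0.83 to -0.23, 69.1% of the WT level, limma adjusted p = 0.0333), and 5.48% of all genes likewise had every Foxa2+/- library below every WT library. The exact permutation p was 0.0159, the smallest that 4 against 5 libraries allow, or 0.286 adjusted over the 36 comparisons. The call held without Foxa2+/- replicate 11 or WT replicates 2 or 5 and was lost without Foxa2+/- replicates 12, 13 or 14 or WT replicates 1, 3 or 4, while the difference stayed between -0.59 and -0.49 and the adjusted p between 0.0324 and 0.111. Relative to the pan-epithelial genes it was -0.67 (adjusted p = 0.0151).

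Double-Het cells, which also carry 1 copy of Foxa2, did not have the low Sec14l3 of Foxa2+/- cells. Double-Het minus Foxa2+/- was 0.63 (95% CI 0.31 to 0.95, 1.55-fold, adjusted p = 0.0355), with 1 of the 6 genes called in this comparison, beside 2.43% of all genes; in 6.54% of all genes every Double-Het library lay above every Foxa2+/- library. Falcor-/- minus Foxa2+/- was 0.50 (95% CI 0.20 to 0.80, 1.41-fold, adjusted p = 0.0283), and here 2 of the 6 genes were called, Sec14l3 and Chad, beside 16.7% of all genes. In 6.86% of all genes every Falcor-/- library lay above every Foxa2+/- library. The exact permutation p was 0.0286 for Double-Het against Foxa2+/- and 0.0159 for Falcor-/- against Foxa2+/-, the smallest these groups allow, and 0.286 for both after adjustment over the 36 comparisons. Both Sec14l3 calls between mutants were near the threshold. The first held in 2 of 8 runs with a library left out, without Double-Het replicate 15 or Foxa2+/- replicate 11 (adjusted p up to 0.125, differences of 0.52 to 0.72). The second held in 4 of 9, without Falcor-/- replicates 7, 8 or 10 or Foxa2+/- replicate 11 (adjusted p up to 0.0935, differences of 0.40 to 0.58). Relative to the pan-epithelial genes they were 0.50 (adjusted p = 0.120) and 0.49 (adjusted p = 0.0538), and with the 2 genotypes alone the adjusted p was 0.0592 and 0.0545, so neither passed there. For Double-Het against Falcor-/- 1 of 6 was called, Chad, beside 5.15% of all genes. Sec14l3 in Double-Het cells stood 0.10 from WT (95% CI -0.20 to 0.40, adjusted p = 0.669) and in Falcor-/- cells -0.03 (-0.32 to 0.25, adjusted p = 0.880).

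The genes closest to Sec14l3 included 1 axonemal dynein heavy chain in each measure. Its deviations from the genotype means were most like those of the dynein Dnah5 (r = 0.94 over 18 libraries), then of Cit, the citron kinase (r = 0.89), and Arhgap39 (r = 0.88). Its levels were most like those of the dynein Dnah9, Osbpl6, an oxysterol-binding protein relative, and Kndc1 (r = 0.90, 0.90 and 0.89). Only Dnah5 and Dnah9 of these 6 are among the ciliated markers listed. Within genotypes, the relation of Sec14l3 to the mean of the ciliated markers did not pass (r = 0.32, permutation p = 0.266, adjusted over 42 relations 0.447). By rank it did not pass either (rho = 0.35, adjusted p = 0.365), and r was 0.45 without the 2 farthest libraries. Over levels, which include differences between genotypes, it passed by r (0.60, permutation p = 0.00829, adjusted 0.0348) but not by rank (rho = 0.43, adjusted p = 0.184). That r was 0.32 without the 2 farthest libraries. The 31 ciliated markers measured averaged 12.37 ± 0.12 in Double-Het, 12.48 ± 0.33 in Falcor-/-, 11.91 ± 0.31 in Foxa2+/- and 12.21 ± 0.14 in WT cells (SD, n = 4, 5, 4 and 5). In Foxa2+/- cells against WT 0 of the 31 were called by limma, beside 6.11% of all genes. At an unadjusted p under 0.05 it was 8 of 31, beside 19.2% of all genes. Of the 31, 2 stood above 0 and the median difference was -0.34, beside 0.04 for all genes. Relative to the pan-epithelial genes 7 of the 31 fell, where 1119 of all 15249 genes did. In Falcor-/- cells 3 of 31 rose, beside 9.47% of all genes called in either direction, and these were AU040972 (1.19, adjusted p = 0.0262), Ccno, a cyclin-related protein needed for multiciliation (0.72, adjusted p = 0.0313), and Dnaic1, a dynein intermediate chain (0.65, adjusted p = 0.0169). That count was 0 to 16 when 1 library was left out, with 16 without Falcor-/- replicate 7; Dnaic1 kept its call in 9 of 10 such runs, AU040972 and Ccno in 5 each. In Double-Het cells 0 of 31 were called by limma, beside 14.8% of all genes, also when any of the 9 libraries was left out. At an unadjusted p under 0.05 it was 1 of 31, beside 29.8% of all genes. Between mutants, 18 of 31 were higher in Falcor-/- than in Foxa2+/- cells (median difference 0.64), beside 16.7% of all genes called in either direction, and 1 of 31 was higher in Double-Het than in Foxa2+/- cells (median 0.46), beside 2.43%. Left-out libraries gave 7 to 23 for the first of these counts, with 7 without Foxa2+/- replicate 13 and 12 without Falcor-/- replicate 6, and 0 or 1 for the second. At an unadjusted p under 0.05, 25 of 31 differed in Falcor-/- against Foxa2+/- cells, beside 36.3% of all genes. For Double-Het against Foxa2+/- cells it was 19 of 31, beside 18.2% of all genes. There 30 of the 31 stood above 0, where 8267 of all 15249 genes did. The part of ciliated cell content in the Sec14l3 difference was not tested.

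Scgb3a2, Scgb3a1 and Chad moved together from library to library, and within genotypes Scgb1a1 moved with Scgb3a2. Deviations of single libraries from their genotype mean correlated between Scgb3a2 and Chad with Pearson's r = 0.90 (permutation p = 0.00026, adjusted over 15 pairs 0.0039) and Spearman's rho = 0.80 (adjusted p = 0.0123), n = 18, and r was 0.82 without the 2 libraries farthest from the median of Scgb3a2. For Scgb3a1 and Scgb3a2 r was 0.80 (permutation p = 0.00213, adjusted 0.0106), rho 0.68 (adjusted 0.0195), and r without the 2 farthest 0.65. For Scgb1a1 and Scgb3a2 r was 0.79 (permutation p = 0.00146, adjusted 0.0106), rho 0.70 (adjusted 0.0195), and 0.57 without the 2 farthest. Over levels this pair passed by r (0.71, adjusted permutation p = 0.00735) but not by rank (rho 0.54, adjusted p = 0.0821). That r fell to 0.35 without Double-Het replicate 16 and Falcor-/- replicate 9. For the deviations of Scgb3a1 and Chad r was 0.78 (permutation p = 0.0051, adjusted 0.0191), rho 0.64 (adjusted 0.0413), and 0.56 without the 2 farthest. The pair of Scgb1a1 and Chad (r = 0.76, adjusted p = 0.0199; rho 0.57, adjusted p = 0.0888) fell to 0.39 without Falcor-/- replicates 9 and 10 and so rests on them. Scgb1a1 and Scgb3a1 did not pass (r = 0.57, adjusted p = 0.242; rho 0.32). No pair with Bpifa1 or Sec14l3 passed, and r ran from 0.05 to 0.43 with Bpifa1 and from -0.001 to 0.17 with Sec14l3. Falcor-/- replicate 9 was the highest of its genotype for 5 of the 6 genes, all but Sec14l3, and Double-Het replicate 18 the lowest of its genotype for 5, again all but Sec14l3.

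**Figure D3:**
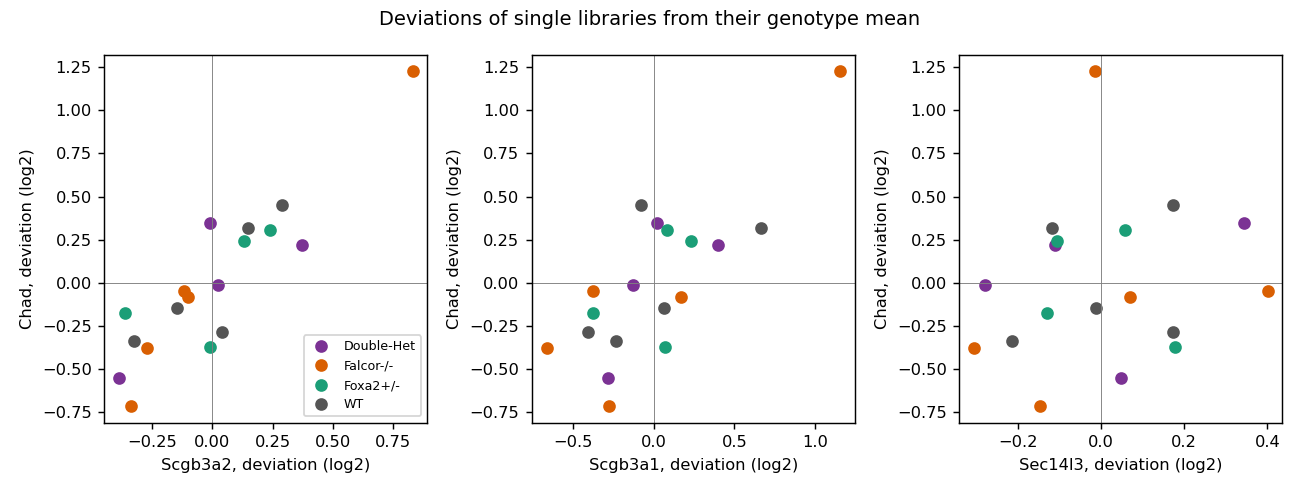
Deviation of each library from its genotype mean in log2 units: Chad (vertical) against Scgb3a2, Scgb3a1 and Sec14l3 (horizontal), 1 point a library, coloured by genotype. Points rise together for Scgb3a2 (r = 0.90) and Scgb3a1 (r = 0.78), with Falcor-/- replicate 9 at the upper right, and show no such relation for Sec14l3 (r = 0.17).

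Chad was closest over the 18 libraries to Cyp2f2, the cytochrome P450 typical of club cells (r = 0.96), then to Gss, the glutathione synthetase (r = 0.95), and Gabrp (r = 0.93). Scgb3a2 was closest to Lrrc26, a regulatory subunit of a potassium channel (r = 0.96), and Gsta3, a glutathione transferase (r = 0.94). Scgb3a1 was closest to Ltf, lactoferrin (r = 0.88), and Klk10 (r = 0.87). Of these, Cyp2f2, Gabrp, Lrrc26 and Gsta3 stand among the club cell genes described next. For Scgb1a1 it was Tpd52 (r = 0.88) and for Bpifa1 H2-Ob (r = 0.73), the lowest likeness among the members' closest genes. These genes are picked from all 15249 as the most alike, so the r values describe these libraries and carry no test.

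The mean of 33 other club cell genes correlated within genotypes with Scgb3a2 (r = 0.91, permutation p = 0.0001, adjusted over 42 relations 0.0021; rho 0.89), Chad (r = 0.84, adjusted p = 0.00616; rho 0.79) and Scgb3a1 (r = 0.78, adjusted p = 0.0115; rho 0.79), n = 18, with 0.83, 0.76 and 0.58 without the 2 farthest libraries. The club mean was 13.59 ± 0.34 in Double-Het, 13.08 ± 0.34 in Falcor-/-, 13.33 ± 0.23 in Foxa2+/- and 13.09 ± 0.14 in WT cells (SD, n = 4, 5, 4 and 5). The relation of the club mean did not pass with Scgb1a1 (r = 0.64, adjusted p = 0.0789; rho 0.52, and 0.25 without the 2 farthest), with Bpifa1 (r = 0.52, adjusted p = 0.0789; rho 0.48) or with Sec14l3 (r = 0.06, adjusted p = 0.885; rho 0.26). The pan-epithelial mean went with Scgb1a1 (r = 0.81, adjusted p = 0.0149; rho 0.81, and 0.79 without the 2 farthest), Scgb3a2 (r = 0.74, adjusted p = 0.0115; rho 0.72, and 0.68) and Chad (r = 0.73, adjusted p = 0.0167; rho 0.63, adjusted p = 0.0665, and 0.61). Scgb3a1 went with the mean of other airway secreted defence proteins (r = 0.86, adjusted p = 0.00042; rho 0.85, and 0.83 without the 2 farthest) and with mucous cell markers (r = 0.74, adjusted p = 0.0149; rho 0.72, and 0.67), lists that both hold Agr2, Bpifb1, Muc5ac, Muc5b and Tff2. Its relation to the pan-epithelial mean did not pass (r = 0.50, adjusted p = 0.223). Scgb3a2 ran against alveolar type 2 markers by r (-0.65, adjusted p = 0.0448) but did not pass by rank (rho -0.49, adjusted p = 0.126). That r fell to -0.38 without the 2 libraries farthest from the median of the alveolar type 2 deviations, and so rests on them. By rank, Scgb1a1 and Scgb3a2 also went with the ciliated markers (rho 0.71 and 0.67, adjusted p = 0.0232 for both), where r did not pass (0.59 for both, adjusted p = 0.120). These deviations share libraries, so a library that stands apart enters every relation.

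Of the 32 other club cell genes tested, 31 stood above 0 in Double-Het cells against WT, where 9319 of all 15249 genes did. Their median was 0.43, beside 0.07 for all genes. At an unadjusted p under 0.05 it was 16 of 32, beside 29.8% of all genes. By limma 5 rose and 0 fell, where 7.21% of all genes rose and 7.57% fell. In either direction that is 5 of 32 beside 14.8% of all genes, a share near the background. They were the lipoxygenase Alox15 (1.84, SE 0.47, adjusted p = 0.0145), the paraoxonase Pon1 (0.85, adjusted p = 0.0367), Gsta3 (0.83, adjusted p = 0.0350), Osgin1 (0.60, adjusted p = 0.0180) and Por, the electron donor of cytochromes P450 (0.42, adjusted p = 0.0339). Relative to the pan-epithelial genes 1 of the 32 rose, Alox15 (1.57, adjusted p = 0.0170), where 252 of all 15249 genes did. The median of the 32 was then 0.16, beside -0.20 for all genes. With 1 library left out the count was 0 without Double-Het replicate 16, 11 without Double-Het replicate 18, 7 without WT replicate 4, and 2 or 3 in the other 6 runs. In Falcor-/- cells 0 rose and 2 fell, the aldehyde oxidase Aox3 (-0.61, adjusted p = 0.0124) and the copper carrier Cp (-0.90, adjusted p = 0.0410), beside 9.47% of all genes. Aox3 kept its call in all 10 runs with a library left out and Cp in 3. In Foxa2+/- cells 0 of 32 were called by limma, beside 6.11% of all genes. At an unadjusted p under 0.05 it was 7 of 32, beside 19.2% of all genes.

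**Figure D4:**
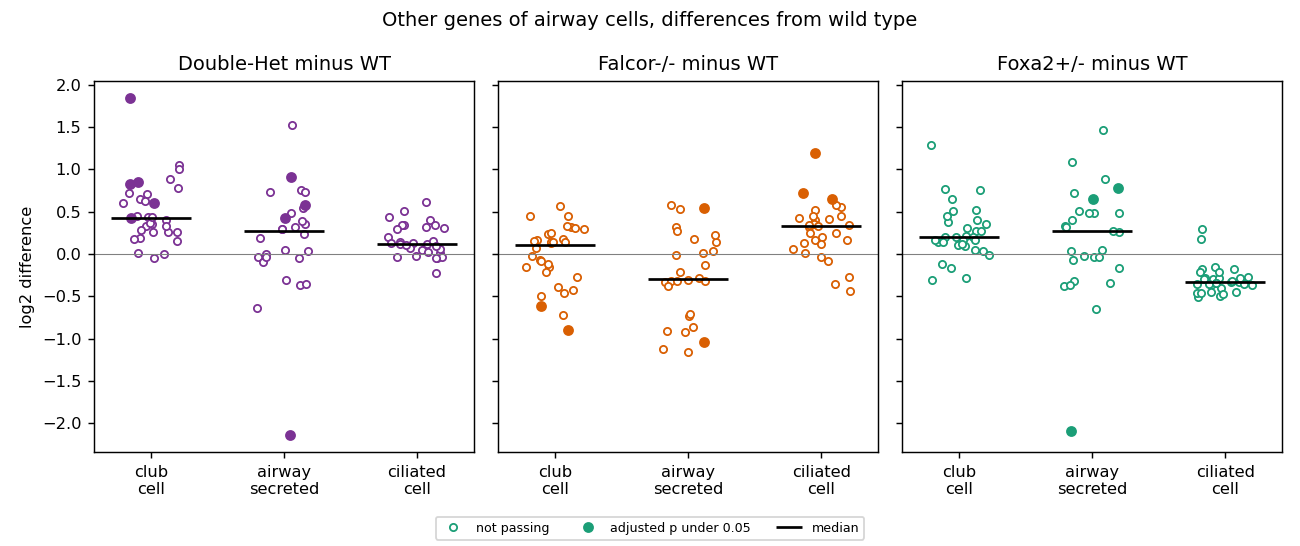
Log2 difference from WT (vertical axis) of the other airway genes in Double-Het, Falcor-/- and Foxa2+/- cells: 32 club cell genes, 28 airway secreted proteins and 31 ciliated cell markers. Each point is a gene, filled where the adjusted p is under 0.05, and the bar is the median. Club genes have a median of 0.43 in Double-Het cells, and ciliated markers one of -0.34 in Foxa2+/- cells with none filled.

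Against WT, other secreted products of the airway moved in few cases. Of 28 tested, 3 rose and 1 fell in Double-Het cells, 1 rose and 1 fell in Falcor-/- cells, and 2 rose and 1 fell in Foxa2+/- cells, beside 14.8%, 9.47% and 6.11% of all genes called, so these shares are no result about the list. Between mutants, 6 of 28 were lower and 2 higher in Falcor-/- than in Foxa2+/- cells, beside 8.1% and 8.56% of all genes. With 1 library left out, 4 to 9 were lower and 0 to 2 higher. Double-Het against Falcor-/- had 4 higher and 1 lower, beside 2.15% and 3% of all genes. Left-out libraries gave 0 to 4 and 0 to 1 there. Double-Het against Foxa2+/- had 0 called. Slpi, a secreted inhibitor of neutrophil proteases, was higher than WT in Double-Het (0.58, adjusted p = 0.0200), Falcor-/- (0.54, adjusted p = 0.0338) and Foxa2+/- cells (0.78, adjusted p = 0.00490), against the same WT libraries. The Foxa2+/- call held in all 9 runs with a library left out and relative to the pan-epithelial genes (0.64, adjusted p = 0.0305). The Double-Het call was lost without Double-Het replicate 16 (adjusted p = 0.0854), and the Falcor-/- call in 6 of 10 runs, without Falcor-/- replicates 8 or 10 or WT replicates 1, 2, 3 or 4 (adjusted p up to 0.0726). Relative to the pan-epithelial genes neither passed (0.31, adjusted p = 0.190, in Double-Het and 0.39, adjusted p = 0.101, in Falcor-/- cells). The membrane mucin Muc1 rose in Double-Het cells (0.42, adjusted p = 0.0159), and Lcn2, the iron-binding lipocalin, rose in Foxa2+/- cells (0.65, adjusted p = 0.0365). Relative to the pan-epithelial genes neither passed (0.15, adjusted p = 0.376, and 0.51, adjusted p = 0.0867), and Lcn2 kept its call only without WT replicate 2 among the 9 runs with a library left out. Ltbp1 fell in all 3 mutants, with log2 differences of -2.14, -1.04 and -2.09 in Double-Het, Falcor-/- and Foxa2+/- cells (adjusted p = 0.000182, 0.0364 and 0.000738); it encodes a matrix protein that binds latent TGF-beta, and stood in the list without being an airway product. Its fall kept its call in every run with a library left out in Double-Het and Foxa2+/- cells, but only in 3 of 10 in Falcor-/- cells, without Falcor-/- replicates 7 or 10 or WT replicate 3.

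Close relatives of the members were measured for 7 genes. Bpifb5, of the same BPI-fold family as Bpifa1, rose in Double-Het cells to 10.44 ± 0.26 (SD, n = 4), against 9.53 ± 0.22 in WT cells (SD, n = 5), a difference of 0.91 (SE 0.19, adjusted p = 0.0044). Bpifb1, the long family member of airway mucous cells, was not called against WT, with 14.25 in Double-Het, 13.70 in Falcor-/-, 14.58 in Foxa2+/- and 14.61 in WT cells. Sec14l1, a relative of Sec14l3 with broad expression, fell in all 3 mutants, with log2 differences of -0.31, -0.24 and -0.31 in Double-Het, Falcor-/- and Foxa2+/- cells (adjusted p = 0.00236, 0.0223 and 0.00382). Sec14l2, Sec14l4 and Sec14l5 and the secretoglobin Scgb1c1 were not called against WT in any mutant. Sec14l4 was lower in Falcor-/- than in Foxa2+/- cells (-0.49, adjusted p = 0.0161), the opposite direction to Sec14l3 in that comparison.

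Regulators of secretory cells were read from a list of 26 genes, of which 4 rose and 2 fell in Double-Het cells, 1 rose and 2 fell in Falcor-/- cells, and 1 rose and 2 fell in Foxa2+/- cells, beside 14.8%, 9.47% and 6.11% of all genes called. The Falcor-/- count is near its share of all genes, so it is no result about the list. At an unadjusted p under 0.05 the counts were 12, 9 and 11 of 26, beside 29.8%, 33.5% and 19.2% of all genes. In Double-Het cells the epithelial ETS factors Elf5 (0.66, adjusted p = 0.00211) and Ehf (0.49, adjusted p = 0.00846), the Foxa2 paralog Foxa1 (0.39, adjusted p = 0.0258) and Grhl2 (0.35, adjusted p = 0.0273) were higher, and Creb3l1 (-0.78, adjusted p = 0.00556) and Foxa2 (-0.60, adjusted p = 0.000891) lower. In Falcor-/- cells the Notch effector Hes1 was higher (0.58, adjusted p = 0.0170), and Rbpj, the DNA-binding partner of Notch (-0.82, adjusted p = 0.000209), and Notch1 (-0.64, adjusted p = 0.04999) were lower. In Foxa2+/- cells Ehf was higher (0.47, adjusted p = 0.0182), and the Notch ligand Jag2 (-0.49, adjusted p = 0.0283) and Foxa2 (-0.57, adjusted p = 0.00245) lower. Double-Het and Foxa2+/- mice carry 1 copy of Foxa2 by genotype, so its place in both counts against WT is no result about the list. Between mutants, 7 of 26 were lower and 3 higher, Foxa2 among them, in Falcor-/- than in Foxa2+/- cells, beside 8.1% and 8.56% of all genes. Left-out libraries gave 3 to 10 lower and 0 to 3 higher. Double-Het against Falcor-/- had 4 higher and 1 lower, Foxa2, beside 2.15% and 3%, with 2 to 6 and 0 to 1 in left-out runs. Relative to the pan-epithelial genes the counts against WT were 1 higher and 6 lower in Double-Het, 1 and 8 in Falcor-/- and 0 and 3 in Foxa2+/- cells. Over all 15249 genes so centred they were 252 and 4105, 277 and 1811, and 92 and 1119, in the same order. There Ehf (0.22, adjusted p = 0.191), Foxa1 (0.12, adjusted p = 0.440) and Grhl2 (0.08, adjusted p = 0.592) did not pass in Double-Het cells, nor Ehf in Foxa2+/- cells (0.33, adjusted p = 0.111). With 1 library left out, Foxa1 kept its call in 4 of 9 runs, Grhl2 in 5 of 9, Notch1 in 1 of 10, Jag2 in 3 of 9 and Ehf in Foxa2+/- cells in 7 of 9; Elf5, Creb3l1, Hes1, Rbpj, Ehf in Double-Het cells and both Foxa2 calls held in every such run. Of the reported receptors of Scgb3a2, syndecan-1 (Sdc1) rose in Double-Het cells (0.41, adjusted p = 0.00365; 0.14, adjusted p = 0.285, relative to the pan-epithelial genes), and the macrophage scavenger receptor Marco ran from 6.73 to 12.57 over the libraries and was not called.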

How the data were processed

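Levels of RNA from EpCAM+ lung cells were analysed for 18 mouse libraries. STAR, limma and the mm9 build are named in the submitters' processing notes, without versions; not given in the sources used here are the counting program, its annotation and strand setting, and any scaling by length. The authors deposited log2 levels that take the same value at the same rank in every library near the top (highest 18.73 in all 18), the form that quantile normalization gives. Depth is therefore unknown, no counting interval is given, and a shift common to most genes would not show. Levels are not compared between genes. Symbols were matched by Ensembl identifier for 14994 of 15544 genes.

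Genes with a mean of at least 6 (15249) were fitted with limma 3.58.1 in R 4.3.3: a mean per genotype over all 18 libraries, empirical Bayes moderation with an intensity trend, and Benjamini-Hochberg adjustment over all genes tested. Differences run mutant minus WT, or first-named minus second. The 6 genes also had exact 2-sided permutation tests (scipy 1.17.1), and correlations used 100000 permutations, within genotypes for deviations. The model was tested on simulated data.

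The 6 genes, the 19 other gene lists and the tests were chosen with earlier results of these data known. By rule, the text names all Scgb, Bpif and Sec14l genes, at most 4 called genes with the smallest p per list, and up to 3 genes most like each member. Pon1, Cp, Ces1f, Lcn2, Ehf, Foxa1, Grhl2, Hes1, Notch1, Jag2, Dnaic1 and Ccno complete short counts and, where the rule does not reach them, were named after their values were seen. Alternatives were no filter, a floor of 8, no trend, robust moderation, library weights, the 2 genotypes alone, centring on 26 pan-epithelial genes, and each library left out; 1 more, without Falcor-/- replicate 9 and Foxa2+/- replicate 14 together, was added after seeing the data.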

Additional observations from a re-analysis of the deposited data

Results flagged for a closer look

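In 24 groups of libraries (6 genes in 4 genotypes), 2 held a library set apart from the others of its genotype by Dixon's test at its 95% critical value, which chance alone gives in about 1 of 20 groups. For Scgb3a2, Falcor-/- replicate 9 had a log2 level of 16.47, while the other Falcor-/- libraries lay between 15.30 and 15.53. For Bpifa1, Foxa2+/- replicate 14 had 17.26, while the other Foxa2+/- libraries lay between 14.18 and 14.45. The first of these libraries was also the highest of its genotype for Scgb1a1, Scgb3a1, Bpifa1 and Chad, and its club cell gene mean was 13.65, beside 12.83 to 13.09 in the other Falcor-/- libraries. Its alveolar type 2 mean of 16.17 was the lowest of all 18 libraries, where the next lowest was 16.29. Its macrophage, lymphocyte, granulocyte and mucous cell means (12.49, 9.54, 9.11 and 10.74) were the highest of its genotype, and so was its pan-epithelial mean (13.50). Its endothelial mean of 11.61 lay within the range of the other Falcor-/- libraries, 10.95 to 12.79, as did its mesenchymal, ciliated and alveolar type 1 means. The part of cell content in these values was not tested.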

How the results depend on the processing

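No paired analysis was possible because the replicate numbers run from 1 to 18 and no number is shared between genotypes. Depth is unknown, and Scgb1a1 stands at ranks where the scale moves in steps. Without a filter, with a floor of 8 and with robust moderation, every member kept its direction and side of the threshold in all 6 comparisons, as did the counts of genes within 1.5 times. Without the intensity trend the differences stayed as they were, Scgb3a2 in Double-Het cells at 0.67, but its adjusted p was 0.0515, and both Chad calls between mutants were lost. Library weights called 4939 genes in Double-Het, 3446 in Falcor-/- and 1947 in Foxa2+/- cells against WT, 2125 in Double-Het against Foxa2+/- and 4757 in Falcor-/- against Foxa2+/-, where the model without weights called 2254, 1444, 932, 370 and 2540; the sign of Sec14l3 in Falcor-/- against WT turned (0.0015), and Scgb3a1 in Falcor-/- against Foxa2+/- gained a call (-0.74). With the 2 genotypes alone 483 genes were called in Falcor-/- against WT, 342 in Double-Het against Falcor-/- and 1181 in Falcor-/- against Foxa2+/-, and the calls of Sec14l3 and Chad between mutants were lost.

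Centring on pan-epithelial genes shifted the median of all genes against WT by -0.27 in Double-Het, -0.15 in Falcor-/- and -0.14 in Foxa2+/- cells, to -0.20, -0.12 and -0.10. The split of called genes became 252 higher and 4105 lower in Double-Het (4357 in all), 277 and 1811 in Falcor-/-, and 92 and 1119 in Foxa2+/- cells, where it was 1100 and 1154, 797 and 647, and 299 and 633 as deposited. Scgb1a1 became -0.19 in Double-Het and -0.11 in Falcor-/- cells and Sec14l3 -0.17 in Double-Het cells, none past the threshold; Scgb3a2 in Double-Het cells lost its call (0.40) and Chad in Falcor-/- cells gained it (-0.81). Between mutants, Double-Het minus Foxa2+/- turned for Scgb1a1 (-0.030) and Scgb3a1 (-0.070), Double-Het minus Falcor-/- for Scgb1a1 (-0.080), and both Sec14l3 calls were lost.

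Without Falcor-/- replicate 9 and Foxa2+/- replicate 14, an alternative chosen after seeing the data, Scgb1a1 was -0.078 in Falcor-/- and 0.0097 in Foxa2+/- cells, Bpifa1 -0.47 in Foxa2+/- cells, Chad -0.96 in Falcor-/- cells, now called, and Sec14l3 -0.50 in Foxa2+/- cells, no longer called. Falcor-/- minus Foxa2+/- turned for Scgb1a1 (-0.088) and Scgb3a2 (-0.071). Genes called were 446 in Falcor-/- against WT, 203 in Double-Het against Foxa2+/- and 663 in Falcor-/- against Foxa2+/-. The cause of these changes was not tested.

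With each library left out in turn, the differences of Double-Het cells from WT ranged over Scgb1a1 0.0097 to 0.11, Scgb3a1 0.34 to 0.64, Scgb3a2 0.54 to 0.79, Bpifa1 0.48 to 1.12, Sec14l3 -0.016 to 0.19 and Chad 0.36 to 0.66, and the genes called over 1342 to 2435. Those of Falcor-/- cells ranged over Scgb1a1 -0.078 to 0.12, Scgb3a1 -0.54 to -0.082, Scgb3a2 0.12 to 0.41, Bpifa1 0.71 to 1.44, Sec14l3 -0.13 to 0.044 and Chad -0.96 to -0.48, and the genes called over 354 to 3926. Those of Foxa2+/- cells ranged over Scgb1a1 -0.062 to 0.0097, Scgb3a1 0.31 to 0.58, Scgb3a2 0.15 to 0.35, Bpifa1 -0.47 to 0.56, Sec14l3 -0.59 to -0.49 and Chad 0.19 to 0.42, and the genes called over 556 to 1118. Between mutants the genes called ranged over 90 to 381 in Double-Het against Foxa2+/-, 412 to 1233 in Double-Het against Falcor-/- and 764 to 4742 in Falcor-/- against Foxa2+/-. Differences between mutants that changed sign were Scgb1a1 in Double-Het against Falcor-/- (-0.049 to 0.15), Scgb1a1 in Falcor-/- against Foxa2+/- (-0.055 to 0.15), Scgb3a1 in Double-Het against Foxa2+/- (-0.073 to 0.15), Scgb3a2 in Falcor-/- against Foxa2+/- (-0.11 to 0.18) and Bpifa1 in Double-Het against Falcor-/- (-0.62 to 0.019), none of them called.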
